A study of Mus musculus with 16 samples.

Results

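Late-losing regions were stretches of the mouse genome chosen by their mean methylation level. It was high in the starting fibroblasts, little below that or above it at day 8 of chemical reprogramming, and low at day 12. DNA methylation was read by reduced representation bisulfite sequencing (RRBS), in which DNA is cut with MspI and bisulfite then marks the unmethylated cytosines. Tiles of 1 kb with at least 3 CpG sites, each with 10 or more reads in every one of the 16 libraries, were the unit. A tile on chromosomes 1 to 19 was late losing if it stood at 60% or more in both D0 libraries, lay less than 10 points below the D0 mean in both D8 libraries, and was at 40% or less in both D12 libraries. There were 181 such tiles, out of 92383 autosomal tiles and 94337 tiles in all. They were 0.349% of the 51813 autosomal tiles at 60% or more in both D0 libraries. Most high tiles, 45309 of them, also met the D12 limit, but only 487 met the D8 limit. In 306 of those at least 1 D12 library was above 40%. The late-losing tiles were thus 0.399% of the high tiles that became low by D12 and 37.2% of those that held to D8.

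The cells derived from mouse embryonic fibroblasts (MEFs) of 129XOG2 embryos at E13.5. The 8 groups were D0 (MEFs), D2, D4, D6, D8, D10 and D12 (cells on that day of culture in reprogramming medium, called reprogramming intermediates) and iPSC (induced pluripotent stem cells), each with 2 libraries. The OG2 transgene reports the activity of Oct4, a pluripotency factor, as green fluorescence. The labels mention no sorting of cells, so each day is read as a bulk culture, in which a change in every cell and a change in a share of the cells give the same level. For iPSCs the medium held LIF, CHIR99021 and PD0325901 and the cells grew on a feeder layer, whose removal the labels do not mention. Whether the 2 libraries of a group were grown as separate cultures is not in the labels, so a p-value reflects the spread between these libraries, which could be technical. Coverage summed over the listed CpG sites ran from 39011213 to 107834007 per library.

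Methylated CpGs are copied to the new DNA strand by DNMT1 with its partner UHRF1, while DNMT3A and DNMT3B set the mark on unmarked DNA. The mark is lost when it is not copied at cell division, or after oxidation of the methyl group by TET enzymes. Fibroblasts carry the mark at most CpGs outside CpG islands, and pluripotent cells grown with inhibitors of GSK3 and MEK are known for low methylation.

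The late-losing tiles stayed above 65% on average to D8 and were lower from D10 on. Their mean level was 70.4% ± 0.369 at D0, 69.3% ± 0.199 at D2, 72.3% ± 0.236 at D4, 65.4% ± 1.08 at D6, 66.6% ± 1.29 at D8, 42.1% ± 0.445 at D10, 27.1% ± 0.743 at D12 and 64.9% ± 0.126 in iPSCs (SD over libraries, n = 2 each). The D0, D8 and D12 levels chose the tiles and are a description. The D2, D4, D6, D10 and iPSC levels were not used. Other high tiles, weighted to the same D0 level in classes of 5 points, stood at 70.5%, 67.5%, 68.3%, 57.7%, 40.7%, 29.4%, 18.7% and 66.2% in the same order of groups. At D6 the late-losing tiles were therefore 7.75 points ± 0.707 above tiles of equal D0 level, and at D10 12.7 points ± 0.0826 above them (SD, n = 2). In iPSCs the same difference was -1.25 points ± 0.00655. With tiles matched on summed coverage as well, the differences were 7.20 points at D6 and 11.8 points at D10.

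**Figure D1:**
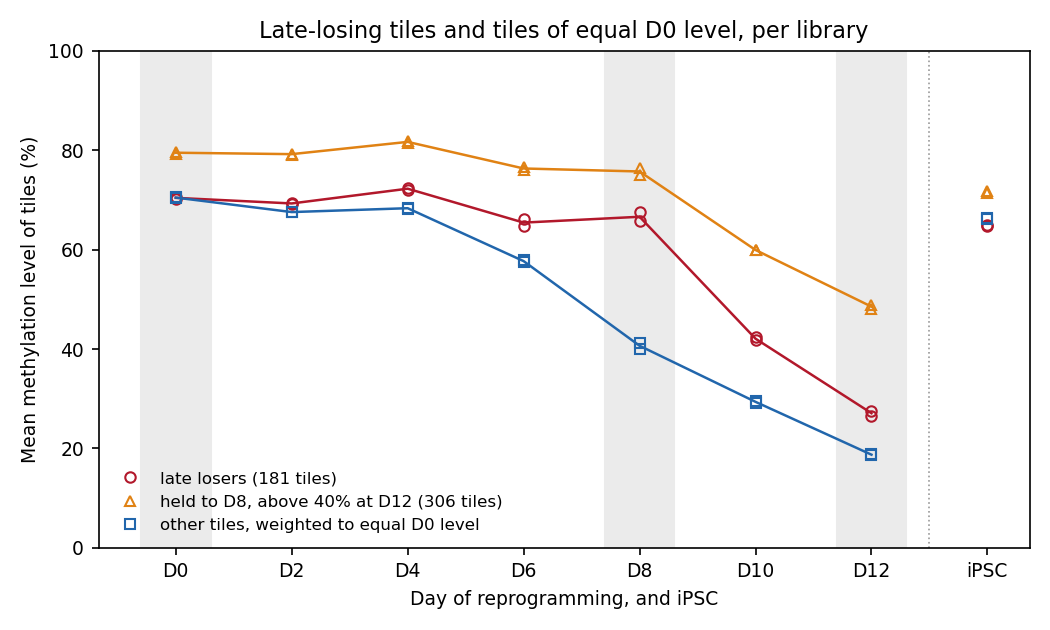
Mean methylation level (y axis, percent) by group (x axis) of 181 late-losing tiles, 306 tiles that held to D8, and other high tiles weighted to the same D0 level. The 306 tiles had at least 1 D12 library above 40%. Each point is 1 library, lines join the means of D0 to D12, and grey bands mark the groups that chose the tiles. The late-losing tiles lay at 65.4% at D6 and 42.1% at D10, above tiles of equal D0 level in both libraries of each group.

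The 306 tiles that held to D8 but had a D12 library above 40% also lost methylation late. Their mean was 79.5% at D0, 76.3% at D6, 75.7% at D8, 59.9% at D10, 48.5% at D12 and 71.6% in iPSCs. They started higher than the late-losing tiles, so the D12 limit of 40% also divides the tiles that held by their starting level.

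Before day 8, few late-losing tiles were called. A call needed a Benjamini-Hochberg adjusted p under 0.05 over all 94337 tiles in edgeR's quasi-likelihood test and a difference of at least 10 points between group means. At D6 against D4, 5 of the 181 tiles were called lower, when 6.69% of all tiles and 10.4% of the high tiles were. None was called higher, against 0.0127% of all tiles. At an unadjusted p under 0.05, 32 of the late-losing tiles were lower and 0 were higher in edgeR. The quasi-binomial model called 6 lower and 0 higher. The shares of all tiles at these settings were not computed, so these counts have no background beside them. Median summed coverage was 120 in the late-losing tiles and 242 in tiles of equal D0 level, and its part in the calls was not tested. Leaving out any 1 library of D4 or D6, or fitting those 2 groups alone, left 0 calls, and the replicate block left 1. The 5 tiles, chosen after their values were seen, were chr2:102981001-102982000, chr4:72909001-72910000, chr4:117225001-117226000, chr13:67793001-67794000 and chr14:111125001-111126000, with differences of -30.9, -15.7, -14.2, -14.3 and -17.1 points. The median difference was -6.15 points over the late-losing tiles and -8.64 points over all tiles. D6 stood below D4 in 161 of the 181 tiles and above it in 20, while it stood below in 95.7% of tiles of equal D0 level. The mean difference was -6.82 points ± 0.778 (SE), against -10.6 points in tiles of equal D0 level. Both D6 libraries lay below both D4 libraries in 87 of the tiles and above them in 4, when 76.8% and 0.768% of tiles of equal D0 level did so. At D6, 109 of the 181 tiles (60.2%) were less than 10 points below the D0 mean, or above it, in both libraries. In tiles of equal D0 level, 21.7% were. D8, which chose the tiles, stood above D6 in 92 of the 181 tiles and below it in 89. It stood above D6 in 3.01% of tiles of equal D0 level. As the rule asked for a high D8 level, this split is a description.

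Between D6 and D10, methylation fell in most late-losing tiles. At D10 against D6, 140 of 181 tiles (77.3%) were called lower, when 70.3% of all tiles and 89.0% of the high tiles were. None was called higher, against 0.219% of all tiles. At an unadjusted p under 0.05 in edgeR 0 were higher, and the quasi-binomial model called 0 higher. The count of lower tiles was 92 when D6 and D10 were fitted alone. Shares of all tiles were not computed for the unadjusted p, the quasi-binomial model or that fit. The median difference was -24.9 points over the late-losing tiles, -22.9 points over all tiles and -29.0 points over the high tiles. The share of late-losing tiles that fell was above that of all tiles and below that of high tiles, and the difference between these shares was not tested. Single tiles ranged from -61.8 to 4.31 points. Of the late-losing tiles 177 were lower and 4 were higher, when 99.6% of tiles of equal D0 level were lower. In 166 (91.7%) both D10 libraries lay below both D6 libraries, against 96.5% of tiles of equal D0 level.

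At D10 the late-losing tiles were mostly between the high and the low state. Both D10 libraries were at 40% or less in 58 tiles (32.04%), against 74.3% of tiles of equal D0 level. In 13 tiles both were still at 60% or more, against 1.12% of tiles of equal D0 level. In 4 tiles both were less than 10 points below the D0 mean or above it, against 0.142%. In 110 tiles (60.8%) the libraries were neither both at 40% or less nor both at 60% or more, against 24.6% of tiles of equal D0 level. At 20% or less in both libraries were 0 tiles, against 14.3% of tiles of equal D0 level. Between D10 and D12, which chose the tiles, the mean differed by a further -15.0 points ± 0.613 (SE). At D12, 169 tiles were lower than at D10, when 89.6% of tiles of equal D0 level were.

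**Figure D2:**
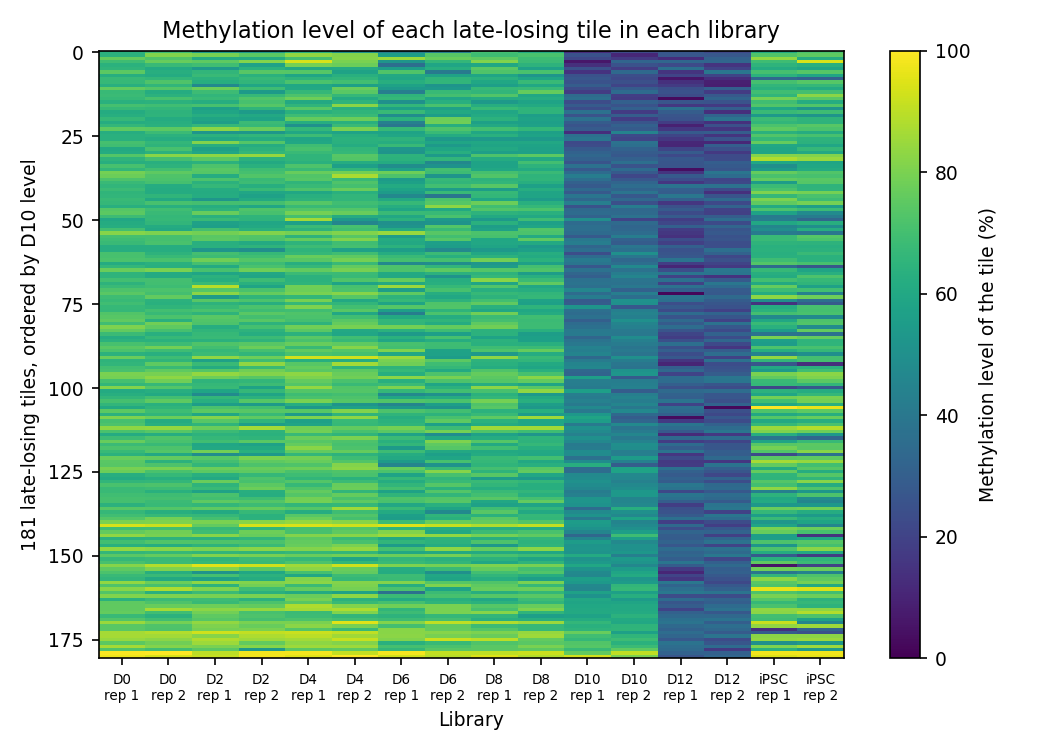
Methylation level (colour, percent) of each of the 181 late-losing tiles (rows, ordered by D10 level) in each of the 16 libraries (columns, 2 per group). Columns change between D8 and D10, the D10 column runs from low levels at the top to 13 tiles at 60% or more, and single dark rows in the iPSC columns are the tiles that stayed low in iPSCs.

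The tiles were named by a fixed rule among the 134 that had a summed coverage of at least 50 in every library. The rule ranked them by their D10-minus-D6 change or their iPSC level. The p-values given for named tiles therefore describe picked extremes and are not tests of them. Coverage of a tile is summed over its sites, so a read that spans several CpGs counts once for each of them. The largest fall at D10 was in a tile that stood at D6 above its D0 level. The tile chr5:135318001-135319000 (6 sites, summed coverage of 60 to 160 per library) had 21.2% and 16.9% at D10, against 84.8% and 76.9% at D6. The D0 libraries of this tile were at 76.3% and 72.3%, and its iPSC libraries at 83.8% and 61.9%. The difference of D10 against D6 was -61.8 points ± 4.52 (SE; edgeR adjusted p = 0.000305), and the libraries did not overlap. Its 5 sites at 78.4% to 89.5% at D0 were all at 33.3% or less at D10.

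The next tiles in that order fell by 46.5 to 38.6 points and were chr11:113884001-113885000, chr12:113142001-113143000, chr3:135290001-135291000, chr1:179712001-179713000, chr3:37699001-37700000, chr18:34059001-34060000 and chr19:56363001-56364000. Their adjusted p in edgeR lay between 0.000105 and 0.0012. The tile on chromosome 11 had 55.6% and 73.9% at D6, against 84.0% and 81.4% at D4 and 64.1% and 81.0% at D0. Its D6 level was not called lower than D4 (edgeR adjusted p = 0.115) and overlapped the D0 libraries. The listed tiles parted in iPSCs. The tile on chromosome 12 had 40.8% and 39.1% in iPSCs, against 81.6% and 80.3% at D0. The tile at chr3:135290001 had 58.4% and 45.5% in iPSCs, against 93.9% and 91.9% at D0. The other 5, and the tile on chromosome 5, had an iPSC mean within 10 points of their D0 mean. On chromosome 19 the D10 libraries stood far apart, at 56.3% and 28.6%, against 82.6% and 79.6% at D6.

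The tiles with the smallest change stood at D10 near their D6 level, and their D6 means lay below their D0 means. The tile chr13:67793001-67794000 (5 sites, summed coverage of 115 to 272) had 73.7% and 68.3% at D10, against 70.4% and 71.4% at D6. At D12 it had 35.8% and 35.1%, and in iPSCs 80.8% and 85.5%, and its D0 libraries were at 86.4% and 81.5%. Of its 5 sites, the 4 at 91.9% to 100% at D0 were at 73.9% to 91.4% at D10 and at 31.4% to 53.3% at D12. The tile chr5:134440001-134441000 was at 73.0% and 63.8% at D10, against 63.6% and 67.5% at D6. In chr14:44354001-44355000 the D10 libraries were at 47.6% and 58.7%, against 61.5% and 50.0% at D6. In chr4:7099001-7100000 they were at 57.1% and 56.7%, against 37.2% and 68.0% at D6. The D6 libraries of that tile lay far apart. Without D6 replicate 2 it was called higher at D10 (19.7 points, edgeR adjusted p = 0.0222), while without D6 replicate 1 the difference was -11.1 points.

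In iPSCs most late-losing tiles were methylated again. At iPSC against D10, 132 of 181 tiles (72.9%) were called higher, when 75.8% of all tiles and 89.3% of the high tiles were. A further 8 were called lower, or 4.42%, when 1.78% of all tiles and 2.02% of the high tiles were. The median difference was 25.5 points over the late-losing tiles and 32.6 points over all tiles. Both iPSC libraries were at 60% or more in 120 tiles (66.3%), against 71.5% of tiles of equal D0 level. They were within 10 points of the D0 mean in 101 tiles (55.8%), against 66.2% of those tiles. They were more than 20 points below D0 in 21 tiles (11.6%), against 6.96%. At iPSC against D0, 22 tiles (12.2%) were called lower, when 9.43% of all tiles and 13.4% of the high tiles were. A further 6 (3.31%) were called higher, when 4.02% of all tiles and 0.633% of the high tiles were. D0 was one of the groups that chose the tiles, so these 2 counts are a description. Without D0 replicate 1, D0 replicate 2, iPSC replicate 1 or iPSC replicate 2 the count of higher tiles was 1, 1, 0 or 2.

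The tiles lowest in iPSCs stood below their D10 level at D12 and again in iPSCs. The tile chr3:15093001-15094000 (7 sites, summed coverage of 104 to 490) had 5.29% and 19.9% in iPSCs, against 59.6% and 46.3% at D10. It was at 81.8% and 88.5% at D0, 80.7% and 79.2% at D6, and 29.4% and 34.4% at D12. The iPSC level was -40.4 points ± 9.88 (SE) from D10 (edgeR adjusted p = 0.000552), in a tile picked for its low iPSC level. All of its 7 sites were at 20% or less in iPSCs and at 72.5% or more at D0.

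The tile chr3:144444001-144445000 (16 sites, summed coverage of 280 to 865) had 28.6% and 17.4% in iPSCs, against 61.2% and 43.3% at D10, and its D0 libraries were at 74.2% and 76.5%. Its D12 libraries, at 33.5% and 39.96%, put it just inside the D12 limit. The tile chr19:36991001-36992000 had 13.6% and 32.2% in iPSCs, against 65.1% and 65.4% at D10. In chr16:43438001-43439000 the values were 26.9% and 13.6% in iPSCs, against 45.1% and 39.2% at D10. The last call was lost without D10 replicate 1, D10 replicate 2 or iPSC replicate 2 (edgeR adjusted p = 0.129, 0.0636 and 0.23).

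At the other end, the tiles highest in iPSCs had stood high at D0. The tile chr15:37404001-37405000 (3 sites within 11 bases, each read 19 to 53 times per library) had 97.8% and 97.7% in iPSCs, against 75.9% and 90.5% at D10. It had 99.4% and 100% at D0, and 31.4% and 31.0% at D12. Its iPSC level was 14.6 points ± 7.29 (SE) above D10 (edgeR adjusted p = 0.0172), a call that was lost without D10 replicate 1 (7.30 points, adjusted p = 0.157), iPSC replicate 1 (0.0703) or iPSC replicate 2 (0.0621). The tile chr3:139827001-139828000 had 94.6% and 96.5% in iPSCs, against 93.0% and 80% at D10, with 26.4% and 32.98% at D12, and it was not called (edgeR adjusted p = 0.116). In both tiles most of the loss lay between D10 and D12. The other tiles of this kind were chr4:151671001-151672000 and chr6:118275001-118276000, at 95.3% and 86.6% in iPSCs.

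The limits of the choice cut through a continuum of tiles. Just inside the D8 limit, chr2:31409001-31410000 had D8 libraries at 60.6% and 60.2%, against a D0 mean of 70.2%, and chr18:53469001-53470000 had 71.0% and 80.9%, against 81.0%. Just outside it, chr10:99385001-99386000 had 66.3% and 74.1%, against 76.3%, and chr8:61768001-61769000 had 63.7% and 59.4%, against 69.4%. All 4 tiles were at 40.01% to 60.3% at D10. At the D12 limit, the tiles just inside had a higher library of 39.96% (chr3:144444001) and 39.9% (chr4:7099001). Those just outside were chr6:47623001-47624000 and chr16:3679001-3680000, both with a higher library of 40.1%.

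Holding to D8 was mostly not shared by the other replicate when only one chose the tiles. With the rule applied to replicate 1 alone, 2110 tiles were chosen, with 67.0% at D8 in the choosing libraries and 49.4% at D8 in replicate 2. With replicate 2 alone, 1254 tiles were chosen, at 65.9% in the choosing libraries and 54.1% in replicate 1. Tiles of equal D0 level had 40.7% and 41.7% at D8 in the same 2 readings. The D8 limit was met in the replicate that did not choose by 14.5% and 26.5% of the chosen tiles, against 3.71% and 6.08% of tiles of equal D0 level, and all 3 limits were met by 199 tiles. At D10 the chosen tiles had 39.1% and 41.3% in the other replicate, against 30.3% and 29.5%. So the D8 level in a library that did not choose lay between that of the choosing library and that of tiles of equal D0 level, while the D6 and D10 levels differed little between the choosing replicate and the other.

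**Figure D3:**
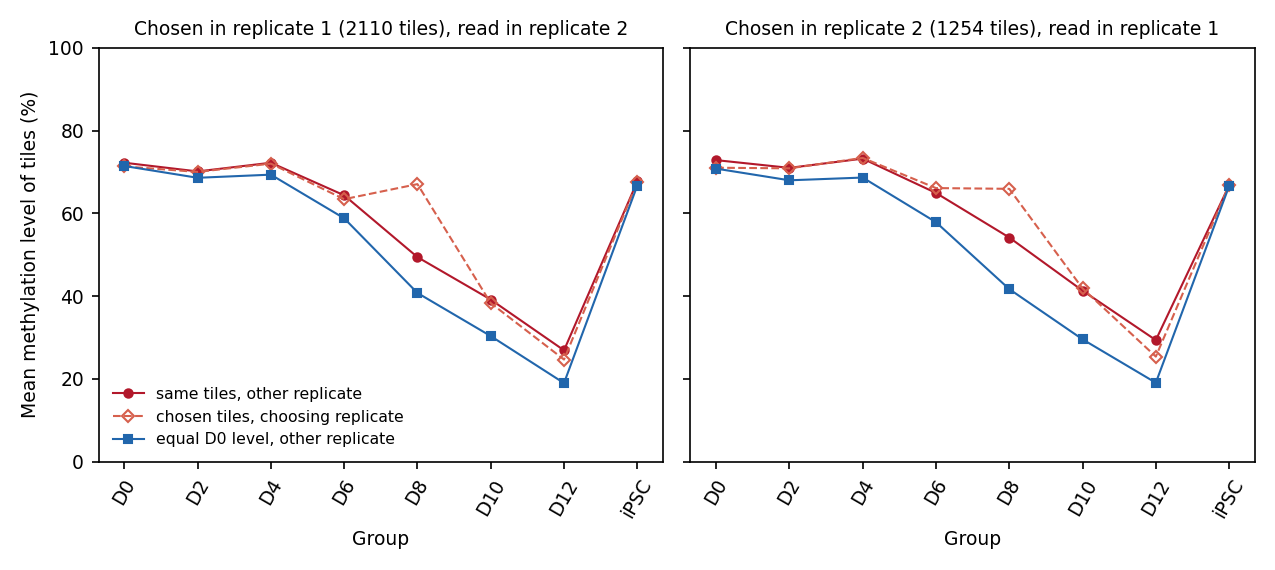
Mean methylation level (y axis, percent) by group (x axis) of tiles chosen in replicate 1 alone (left, 2110 tiles) or replicate 2 alone (right, 1254 tiles), in the replicate that did not choose (filled circles), in the choosing replicate (open diamonds) and in tiles of equal D0 level (squares). At D8 the tiles stood at 67.0% and 65.9% in the choosing replicate, and at 49.4% and 54.1% in the other.

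Coverage went with membership. The median late-losing tile had a summed coverage of 120 per library, against 242 in tiles of equal D0 level and 256 in all tiles. Per site the median was 25.9 reads, against 38.6 in tiles of equal D0 level and 37.3 in all tiles. When the high tiles were cut into 10 classes of summed coverage, late-losing tiles made up 11.4 per 1000 (8.86 to 14.7, Wilson 95% interval) in the lowest class and 0.193 per 1000 (0.0340 to 1.09) in the highest. The Wilson half-width of 1 late-losing tile's level had medians of 7.59 to 9.59 points over the D6, D8 and D10 libraries, which is close to the 10 points of the D8 limit. Such intervals cover counting error only, and are too narrow, since the libraries hold no molecular identifiers and the sites of a tile share reads. The part of coverage in the choice was not tested. The 34 late-losing tiles with a median summed coverage of at least 200 had 66.5% ± 1.16 at D6, 64.9% ± 1.26 at D8, 46.1% ± 0.518 at D10 and 60.7% ± 1.01 in iPSCs. Tiles of equal D0 level with at least 200, not matched further on coverage, had 57.3%, 39.7%, 28.9% and 66.2% in that order. The deep late-losing tiles thus lay above them at D6 and D10 and below them in iPSCs. The same D0, D8 and D12 limits had chosen these deep tiles.

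**Figure D4:**
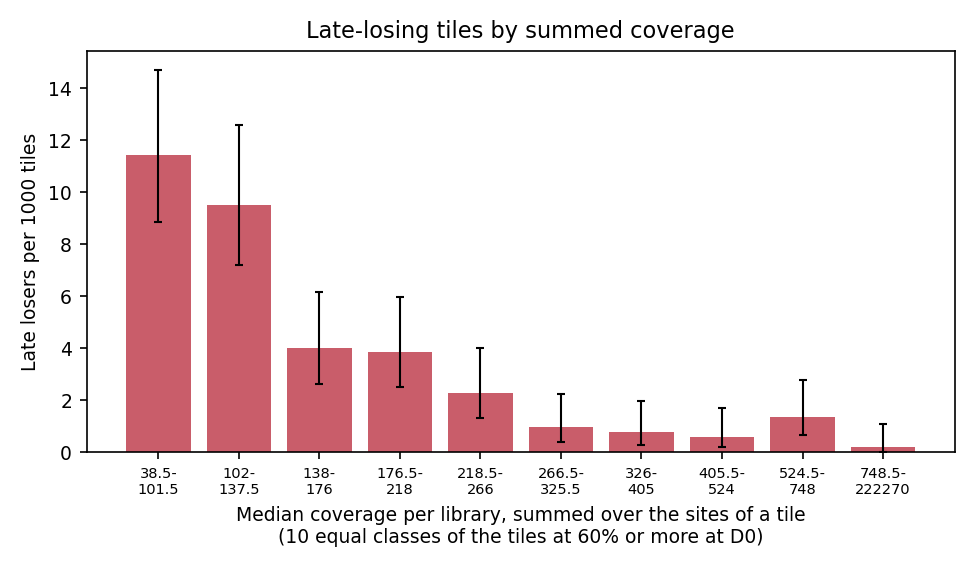
Late-losing tiles per 1000 tiles at 60% or more in both D0 libraries (y axis), in 10 classes of equal size by median coverage per library, summed over the sites of a tile (x axis, range in each class); bars start at 0 and error bars are Wilson 95% intervals. The share was 11.4 per 1000 in the lowest class and 0.193 per 1000 in the highest.

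The late-losing tiles held 1006 CpG sites, counted by strand, and their behaviour split by the level of the site at D0. The 580 sites at 80% or more had 91.8% at D0, 91.4% at D4, 82.9% at D6, 78.5% at D8, 55.0% at D10, 31.6% at D12 and 80.04% in iPSCs. In tiles of equal D0 level such sites had 90.9%, 87.7%, 74.9%, 52.9%, 40.1%, 23.7% and 82.4% in the same order. The highly methylated sites of late-losing tiles thus already stood below their D0 level at D8 in both libraries, although their tiles met the limit. At D10 the level was lower than at D6 at 914 of the 1006 sites (90.9%), and 112 tiles had every site lower.

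A minority of sites moved the other way at D8. The 169 sites under 30% at D0, in 152 of the 181 tiles, had 13.6% ± 0.236 at D0, 19.4% ± 0.428 at D4, 19.1% ± 2.73 at D6, 33.9% ± 1.56 at D8, 14.6% ± 0.891 at D10, 16.4% ± 1.31 at D12 and 12.9% ± 1.58 in iPSCs (SD, n = 2). In tiles of equal D0 level such sites stayed at 11.8% at D0, 12.1% at D6 and 13.0% at D8, and had 8.67% at D10. The D8 libraries chose the tiles, and in tiles chosen by replicate 1 these sites had 34.9% at D8 in replicate 1 and 19.9% in replicate 2. With replicate 2 choosing they had 29.4% in replicate 2 and 22.8% in replicate 1.

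**Figure D5:**
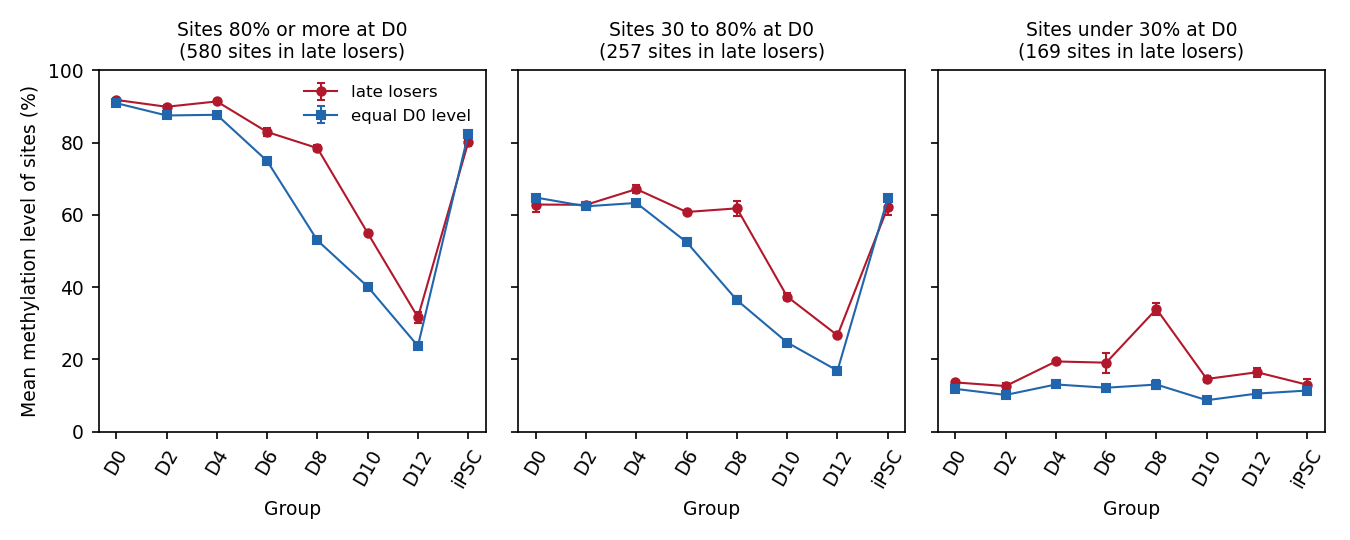
Mean methylation level of sites (y axis, percent) by group (x axis) for sites at 80% or more (left), 30 to 80% (middle) and under 30% (right) at D0, in late-losing tiles (circles) and tiles of equal D0 level (squares); error bars are the SD over 2 libraries. In late-losing tiles, sites under 30% at D0 stood at 33.9% at D8, above their level in every other group, while sites at 80% or more were at 78.5%, against 91.8% at D0.

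The sites with low D0 levels had a fixed place. Of the 167 that lay on a strand with several common sites in their tile, 160 (95.8%, 91.6 to 97.95, Wilson 95% interval) were the last of them in the 5′ to 3′ direction of that strand. Only 4.17% of the sites at 80% or more were, and the shares were 93.1% and 4.45% in tiles of equal D0 level. The protocol in the labels fills the MspI ends with nucleotides that include dCTP, and which listed sites are such ends was not identified here, so their part in the result was not tested. In chr18:34059001-34060000, for example, the last site, at base 34059888, had 6.58% at D0, 40.9% at D8 and 6.38% at D10, while the other 3 sites had 74.3% to 93.3% at D0 and 69.8% to 86.4% at D8. When sites under 30% at D0 were left out before tiling, 93 tiles met the rule and 59 of them were among the 181. Those 93 tiles had 67.9% ± 0.474 at D6, 45.0% ± 1.01 at D10 and 71.2% ± 0.133 in iPSCs. They were chosen by the same limits, and D10 also lay below D6 in 99.6% of tiles of equal D0 level. The fall from D6 to D10 therefore cannot show what part the low sites had.

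Sites of one tile differed widely at D0 and less at D8. The median range between the sites of a late-losing tile was 80.5 points at D0, 82.5 points at D2, 75.5 points at D4, 68.4 points at D6, 46.8 points at D8, 45.9 points at D10 and 77.7 points in iPSCs. It was 84.0 points at D0 and 48.5 points at D8 in tiles of equal D0 level. Of the 142 CpGs with both strands listed, 37 (26.1%) had strands at least 50 points apart at D0, 16 at D8 and 39 in iPSCs. The share at D0 was 30.3% in tiles of equal D0 level.

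The number of CpGs compared differently by how it was counted. The median was 5 CpGs listed in any library, both in late-losing tiles and in tiles of equal D0 level. Tiles with 1 to 4 CpGs listed made up 37.6% (30.8 to 44.8, Wilson 95% interval) of the late-losing tiles, 41.7% of tiles of equal D0 level and 51.9% of tiles of equal D0 level and summed coverage. By common sites, counted by strand, tiles with 1 to 4 made up 45.9% (38.8 to 53.1) of the late-losing tiles, against 31.2% of tiles of equal D0 level and 58.2% with coverage matched as well. None of these differences was tested. The median was 5 common sites, against 6 in tiles of equal D0 level, and they spanned a median of 266 bases, against 200.

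The late-losing tiles lay scattered over all 19 autosomes. No 2 were adjacent, and the smallest distance between neighbours was 54000 bases. Chromosomes 1 and 3 held the most, with 16 each, and chromosomes 15 and 17 the fewest, with 4 each. Per 1000 high tiles the number ran from 1.68 on chromosome 17 to 5.95 on chromosome 13. Within 10 Mb of the last covered tile of a chromosome lay 17 of them (9.39%), against 11.6% of tiles of equal D0 level, and within 10 Mb of the first lay 12 (6.63%), against 6.96%. Their median place along the covered chromosome was at 57.5% of its length, against 57.8%.

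Tiles next to the late-losing tiles were also higher at D8 than their own D0 level would give. There were 47 such neighbours at 60% or more in both D0 libraries that were no member themselves. They had 72.9% ± 1.00 at D6, 61.6% ± 1.26 at D8, 43.5% ± 1.24 at D10, 28.3% ± 0.0941 at D12 and 74.0% ± 2.00 in iPSCs (SD, n = 2). Tiles with the D0 levels of these neighbours had 69.1%, 50.7%, 39.9%, 24.9% and 72.8%. The D8 limit was met by 4 of the 47 (8.51%), against 0.729%. Over the 162 tiles within 10 kb the D8 level was 52.0%, against 48.0%, so the difference was smaller farther out. The neighbours were not used to choose the tiles, but a fragment that crosses a tile border puts reads of the same molecules into both tiles.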

How the data were processed

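RRBS libraries of 8 groups, 2 each, were analysed from the CpG tables deposited by the authors, in which coverage is a count of reads per site and methylation a percent of reads, per the file headers. Fragments were filled and A-tailed after MspI digestion and amplified by PCR, per the labels' protocols. Per the submitters' processing notes, the tools named are Bismark 0.23.0, Bowtie2, fastp 0.20.1 and methylKit, and the build is GRCm39. Settings for trimming and filled-in ends were not given in the sources used here. All tables list sites from 10 reads up, so thinly covered sites are missing, and coverage times percent gave whole methylated reads at every site.

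Of 3179510 sites listed in any library, 873038 (27.5%) had at least 10 reads in all 16, counted by strand. Tile levels are methylated over all reads in 1-kb tiles from base 1 with at least 3 such sites; coverage is summed over sites, so a read counts once per CpG it spans and the counts in the tests are not independent molecules. The test was edgeR 4.0.16 quasi-likelihood (R 4.3.3) on methylated and unmethylated counts of all 16 libraries, with library effects, a methylation coefficient per group and 1 dispersion, adjusted over 94337 tiles; it was tested on simulated data. The quasi-binomial alternative fits a logistic model per tile, with the dispersion shrunk by limma 3.58.1. Tiles of equal D0 level are other autosomal tiles at 60% or more in both D0 libraries, weighted to the late-losing tiles' D0 classes. Wilson intervals came from scipy 1.17.1.

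The members and lists were chosen with earlier results of these data known. Tiles were named by rule among late-losing tiles that had a summed coverage of 50 or more in each library: the 8 largest falls at D10 against D6 among those called, the 4 smallest changes there, the 4 lowest and 4 highest iPSC levels, the longest run of adjacent tiles (there was none), and the 2 tiles on either side of the D8 and D12 limits. The replicate number did not pair the samples: differences between replicates correlated between groups at r = -0.0144 to 0.00778, so the fit has no replicate block. Alternatives changed the limits, the coverage, the sites per tile, the tile start, the weighting, the strands, the model and the libraries. No genome or annotation of GRCm39 was used here, so genes, promoters and sequences of the tiles were not analysed here.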

Additional observations from a re-analysis of the deposited data

How the results depend on the processing

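At D6 against D4 the 5 lower calls became 1 with the replicate block, 1 with at least 20 reads per site, 0 with those groups fitted alone, 1 with a minimum of 25 points, 2 among the 34 tiles with a summed coverage of 200 (deep tiles), and 0 in each fit without a single library of D4 or D6. At D10 against D6 the 140 lower calls became 23 with 20 reads per site (35 tiles met the rule), 92 in the groups alone, 87 at 25 points and 28 of the 34 deep tiles, and the 0 higher calls 0 to 1 without single libraries. At iPSC against D10 the 8 lower and 132 higher calls became 4 and 24 with 20 reads per site and 5 and 21 of the deep tiles, and the lower ones 4 at 25 points. At iPSC against D0 the 22 lower and 6 higher calls became 5 lower with 20 reads per site, 10 higher with strands merged, 9 and 3 of the deep tiles, 1 higher at 25 points and 0 to 2 higher without single libraries. With the replicate block (a number that did not pair the samples) the other counts were 141 lower at D10 against D6, 8 lower and 128 higher at iPSC against D10, and 22 lower and 6 higher at iPSC against D0. Shares of all tiles called at these other settings were not computed. None of these counts can therefore be read as particular to the late-losing tiles.

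The number of late-losing tiles depended on the limits: 38 with a D8 limit of 5 points, 734 with 15 points, 80 with a D12 limit of 30%, 98 with 5 sites per tile, 35 with 20 reads per site (16 of them among the 181), 2110 and 1254 chosen in replicate 1 or 2 alone, 34 with a summed coverage of 200 and 93 without sites under 30% at D0, the last 2 chosen after seeing the data. Their mean levels at D6, D10 and iPSC were 66.5%, 42.7% and 63.2% with 5 points, 63.5%, 37.6% and 63.8% with the D12 limit of 30%, and 66.6%, 43.5% and 65.7% with 5 sites. They were 64.3%, 39.1% and 67.7% when replicate 1 chose, 66.5%, 46.1% and 60.7% in the deep tiles and 67.9%, 45.0% and 71.2% without low sites. Where fewer levels moved by more than 1 SD, D10 and iPSC were 50.2% and 66.0% with 20 reads per site, 41.5% and 66.9% with strands merged, and 41.3% and 66.7% when replicate 2 chose. The iPSC level alone was 66.5% with 15 points, 66.4% with tiles shifted by 500 bases and 65.2% with an unweighted mean of sites. D10 stayed below D6 and below iPSC in each of these choices. Nearly any choice of high tiles gives this order. D10 lay below D6 in 99.6% of tiles of equal D0 level, and iPSC lay below D10 in only 2.49%. The order is thus a description and does not show that the result holds. The difference in tiles with 1 to 4 CpGs, late-losing minus equal D0 level, was -4.15 percentage points, -14.3 with coverage matched, and 14.6 when common sites were counted in place of CpGs listed, so its sign reversed. The counting error of a tile was near the width of the D8 limit, and the part of depth in the choice was not tested. For the named tiles, called or not, 147 alternative values kept their direction and their side of the threshold, 6 lost a call, 2 gained one and 6 that were not called changed sign. The causes were not tested.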

Other observations

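Chromosomes X and Y lay outside the rule. With the same limits, 3 of 1159 tiles on X that were at 60% or more in both D0 libraries would have been late losing, and 0 of 100 such tiles on Y.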
